A study of Mus musculus with 12 samples.

Results

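The 10 genes described here, Myc, Mycn, Max, Mxd1, Mxd3, Mxd4, Mxi1, Mnt, Mlx and Mga, encode the MYC proteins, their partner MAX and the other proteins that pair with MAX or MLX. They were taken by symbol from a table of 55536 genes, and all 10 were found once in it and passed the filter on low counts that left 18817 genes for testing. RNA-seq was performed on 12 libraries of OT-I CD8+ T cells, which carry a transgenic T cell receptor for the ovalbumin peptide SIINFEKL on a Rag-deficient C57BL/6J background. In the Ag group (5 libraries), cells from OT-I Tg donors were transferred into C57BL6/J mice that then received the peptide with control rat IgG. In the Ag+Costim group (5 libraries), the recipients received the peptide with agonist antibodies to CD134 (OX40) and CD137 (4-1BB), receptors that deliver costimulation to activated T cells. The donor cells were sorted from spleen and lymph nodes after 4 days according to the sample labels, while the study's methods give a somewhat shorter time. The Naive group (2 libraries) was purified from OT-I mice with no transfer and no treatment, so it differs from both other groups in transfer as well as in antigen. Mice of both sexes were used, with ages that spanned several months according to the study's methods. The study describes its RNA-seq libraries as individual biological replicates, and the labels do not say how many mice gave the RNA of each.

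MYC is a transcription factor that binds DNA as a dimer with MAX, most strongly at the E-box CACGTG, and drives genes of ribosome production, nucleotide synthesis and nutrient uptake. The MXD proteins, MXI1 and MNT compete for MAX, occupy the same sites and recruit the SIN3 corepressor, and MGA brings MAX into the Polycomb complex PRC1.6. MLX resembles MAX and pairs with the glucose-responsive factors MLXIP and MLXIPL as well as with MNT and some MXD proteins. In T cells MYC is known as a protein that appears after antigen recognition and sets growth and metabolism of the dividing cell.

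Total gene counts were 43491402 and 42342577 in the Naive libraries, 40028682 to 49294934 in the Ag+Costim libraries and 24006053 to 45980125 in the Ag libraries, where the lowest belonged to Ag 4. A count of 3 corresponded to 0.0609 to 0.125 CPM (counts scaled to a fixed library size), depending on the library, and the members other than Mycn were well above it in every library. Rank correlations between libraries were 0.966 to 0.982 within Ag, 0.971 to 0.983 within Ag+Costim, 0.984 between the Naive libraries and 0.887 to 0.945 between groups. The sequencing core listed an input amount of 0 for every Ag library, 10 for every Ag+Costim library and 8.5 and 10.7 for the Naive libraries, without a unit, so this entry and the group cannot be told apart.

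The labelled cell type was checked first. All 8 T cell markers were detected in every library, Cd8a was at 485 to 1224 CPM of total counts, and Cd4 was at most 2.39 CPM. The 9 proliferation markers summed to 75.1 and 80.9 CPM in Naive, 866 to 1810 CPM in Ag and 3829 to 5116 CPM in Ag+Costim, with Rrm2 the most abundant of them. Marker genes of other cell types were present as well. The 7 erythroid markers summed to 589 to 6729 CPM in Ag, with the highest value in Ag 4, to 14.0 to 212 CPM in Ag+Costim, and to 2316 and 169 CPM in Naive. The 6 B cell markers were led by Ighm, which at 1033 to 1629 CPM in Ag was above Cd8a in each Ag library. They summed to 1174 to 1730 CPM in Ag, to 1172 and 1192 CPM in Naive, and to 556 to 1140 CPM in Ag+Costim. The 7 myeloid markers, led by Lyz2, summed to 32.6 to 171 CPM over all libraries, and the 2 NK cell markers to at most 15.3 CPM. The study's methods describe a sort of the transferred cells to high purity, for CD8, the donor marker CD45.1 and both transgenic receptor chains. The part of other cell types in the results below was not tested. The summed T cell markers ranged from 9321 to 11335 CPM in the Ag libraries and from 4997 to 6838 CPM with costimulation. The fall was uneven. Cd3g was at 1319 to 1997 CPM in Ag and 417 to 655 CPM in Ag+Costim. Only Cd3e (744 to 884 and 582 to 844 CPM) and Thy1 (97.9 to 201 and 95.8 to 118 CPM) overlapped between these groups. For a single gene in bulk RNA, a smaller share of cells of a type cannot be told apart from less of that RNA per cell.

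To ask how costimulation bears on the network, Ag+Costim was compared with Ag. Of the 10 members, 4 were higher (Max, Mnt, Mxd3 and Myc) and 3 were lower (Mxd4, Mxi1 and Mxd1) in Ag+Costim, beside 26.6% of all tested genes called higher and 26.5% called lower (53.1% in either direction) by edgeR's quasi-likelihood test at an adjusted p below 0.05. For all 7 genes the 5 Ag+Costim libraries lay wholly outside the range of the 5 Ag libraries, as they did for 21.3% (above) and 18.5% (below) of all genes. Under upper-quartile scaling the share of calls that were higher was 39.0% in place of 50.1%, and the median of all genes moved from -0.05 to -0.24 on the log2 scale. All of these 7 members kept their direction under every alternative that was run, and 6 of them their call. Mxd1 was the exception. Without Ag 4 the same 4 were higher and 4 were lower, the additional one being Mycn.

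Max, the obligate partner of MYC, had the strongest rise. Its level was 16.4, 14.9, 17.6, 20.4 and 20.4 CPM in the Ag libraries and 71.7, 70.2, 101, 103 and 82.7 CPM in the Ag+Costim libraries. The lowest Ag+Costim library was therefore far above the highest Ag library. The log2 fold change was 2.25 (SE 0.14), a fold of 4.77 (edgeR adjusted p = 4.24e-08). In Naive, Max was at 46.7 and 55.2 CPM, between the other groups.

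Myc itself was at 72.0, 72.0, 101, 66.8 and 56.5 CPM in Ag and at 122, 157, 156, 124 and 125 CPM in Ag+Costim. The groups did not overlap, and the gap between Ag 3 and the lowest Ag+Costim library was close to the SD within the groups (16.6 and 17.9 CPM). The log2 fold change was 0.89 (SE 0.14), or 1.86-fold (edgeR adjusted p = 1.21e-04). The Naive libraries, at 160 and 181 CPM, were above all others.

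Mxd4, a repressor partner of MAX that is known from resting and differentiated cells, showed the opposite pattern. Its level was 132, 108, 116, 106 and 98.5 CPM in Ag and 14.4, 11.0, 10.6, 20.0 and 14.4 CPM after Ag+Costim. No library of 1 group came near the other. The log2 fold change was -2.99 (SE 0.16), the largest fall among the members (edgeR adjusted p = 1.87e-08).

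Mxd3, the MXD gene whose RNA is known from cycling cells, was at 70.5, 63.0, 55.6, 72.1 and 30.2 CPM in Ag and at 107, 93.9, 127, 110 and 132 CPM in Ag+Costim. Every Ag+Costim library was higher, and Ag 5 was the lowest of its group as it was for the proliferation markers. The log2 fold change was 0.97 (SE 0.19, edgeR adjusted p = 7.82e-04). Proliferation markers moved in the same direction across these groups, and their part in the difference was not tested.

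Mnt, a broadly expressed repressor that pairs with MAX and MLX, was low in Ag, at 2.54, 2.98, 3.01, 5.22 and 3.51 CPM, and reached 7.23, 10.5, 6.54, 10.1 and 6.52 CPM in Ag+Costim. The groups stayed apart by little more than 1 CPM. The log2 fold change was 1.25 (SE 0.22, edgeR adjusted p = 2.83e-04). It was 0.63 on the log2(FPKM + 1) scale, which compresses low genes by construction.

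The other repressor genes fell by less. Mxi1 was at 16.8, 14.4, 13.0, 15.9 and 17.8 CPM in Ag and at 8.82, 10.6, 9.80, 6.63 and 11.8 CPM in Ag+Costim, with a log2 fold change of -0.71 (SE 0.15, edgeR adjusted p = 0.00139). Mxd1, the first MXD protein described as an antagonist of MYC, was at 22.3, 31.8, 23.6, 23.5 and 29.1 CPM in Ag and at 10.6, 18.1, 20.1, 22.1 and 20.0 CPM in Ag+Costim. The highest Ag+Costim library and the lowest Ag library almost touched. Its log2 fold change of -0.52 (SE 0.17) passed the threshold (edgeR adjusted p = 0.0229), but not without Ag 2 (0.0612) or without Ag 5 (0.0507). For Mga and Mlx the log2 fold changes were -0.00 (95% interval -0.28 to 0.27) and -0.01 (-0.22 to 0.20), so that changes larger than these bounds lay outside the intervals.

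Mycn, the MYC paralog of embryonic tissues, varied widely between libraries of the same group. The Ag libraries held 282, 317, 63, 0 and 107 counts, the Ag+Costim libraries 74, 46, 6, 27 and 5, and the Naive libraries 4 and 0. The groups of treated mice overlapped, since Ag 3 (1.47 CPM) and Ag 4 were below Ag+Costim 1 (1.75 CPM). Ag 4 had no count, which allows at most 0.125 CPM. The fitted log2 fold change of -2.24 (SE 0.97) was not called (edgeR adjusted p = 0.0678), and it was called under upper-quartile scaling (-2.43, adjusted p = 0.0484), without Ag 4 (-2.56, adjusted p = 0.0116) and without Ag+Costim 1 (-2.85, adjusted p = 0.0402). On the log2(FPKM + 1) scale it was -0.71 (limma adjusted p = 0.0605).

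**Figure D1:**
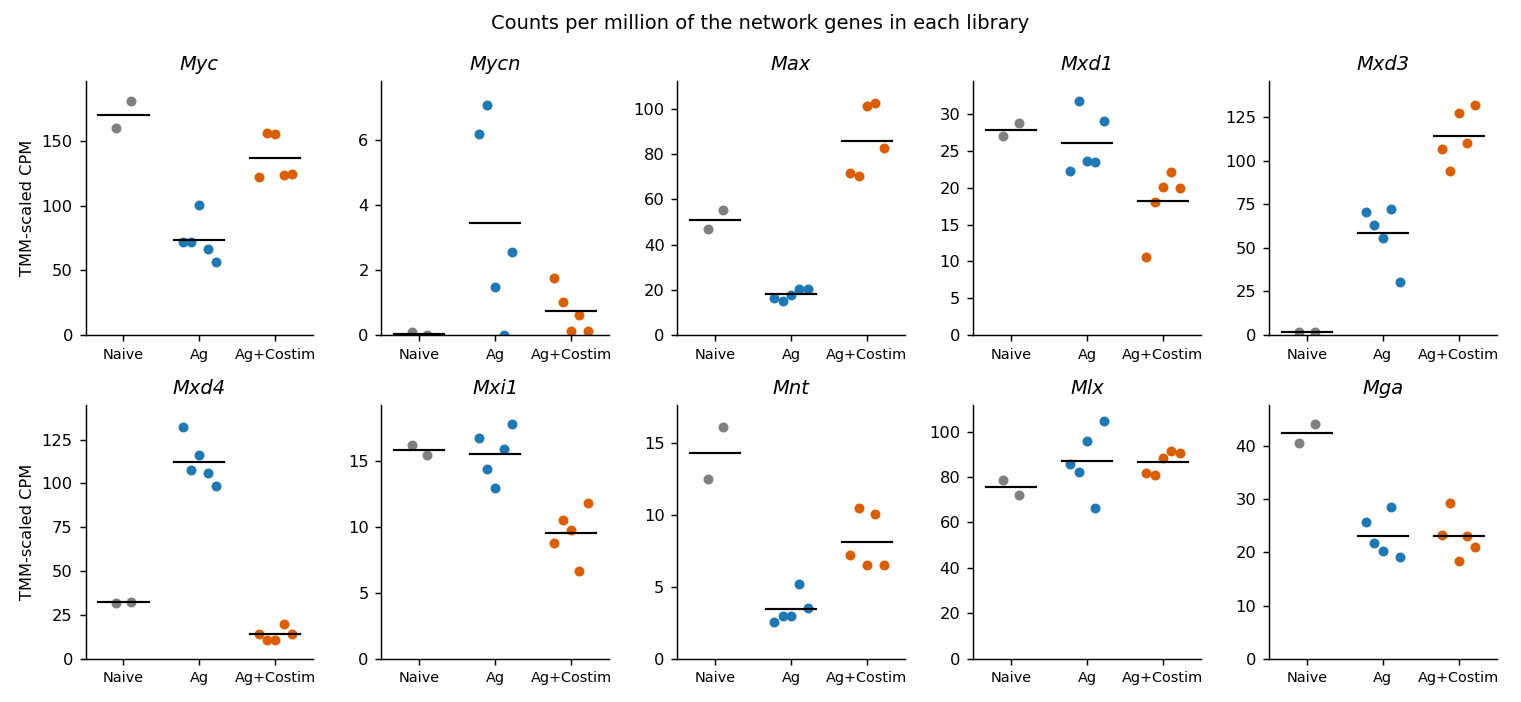
Each panel plots the TMM-scaled CPM of 1 gene (y axis from 0, with its own scale) in the Naive, Ag and Ag+Costim libraries (x axis); each point is 1 library and each bar the group mean. Max and Mxd4 separate Ag from Ag+Costim in opposite directions, at 18.0 against 85.7 CPM and 112 against 14.1 CPM on average, while Mlx and Mga overlap between these 2 groups.

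The same members were then compared with Naive cells, for which both comparisons share the 2 Naive libraries. In Ag against Naive, 3 members were higher (Mycn, Mxd3 and Mxd4) and 4 lower (Mnt, Max, Myc and Mga), beside 24.2% of all genes called higher and 22.5% lower (46.7% in either direction). Of all calls 51.9% were higher, against 42.6% on the log2(FPKM + 1) scale and 59.6% with a length correction. The Ag libraries lay wholly above both Naive libraries for Mxd3 and Mxd4 (27.2% of all genes) and wholly below for Mga, Myc, Max and Mnt (29.2%). In Ag+Costim against Naive, 2 were higher (Mxd3 and Max) and 5 lower (Mxd4, Mga, Mnt, Mxi1 and Mxd1), beside 26.9% and 25.4% (52.3% in either direction). Here the libraries separated for all 10 members, above Naive for Mxd3, Max, Mlx and Mycn (31.7% of all genes) and below for the rest (34.2%). On the log2(FPKM + 1) scale 41.0% of the calls were higher in place of 51.5%. With 2 libraries the Naive spread rests on few values, and single Naive libraries decided some of these calls.

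Myc and Max were both lower in Ag than in Naive, by 1.21 (SE 0.18, edgeR adjusted p = 9.16e-05) and 1.50 (SE 0.17, edgeR adjusted p = 9.37e-06) on the log2 scale. In Ag+Costim, Myc stood at a log2 fold change of -0.32 against Naive (95% interval -0.68 to 0.04, edgeR adjusted p = 0.156), although all 5 libraries were below both Naive libraries. On the log2(FPKM + 1) scale the same difference was -0.57 and passed the limma test (adjusted p = 0.00531), as it did under upper-quartile scaling (edgeR adjusted p = 0.0373). Max was higher in Ag+Costim than in Naive by 0.75 (SE 0.18, edgeR adjusted p = 0.00350). That call was lost without Naive 1 (0.0617) and on the log2(FPKM + 1) scale (0.29, limma adjusted p = 0.138).

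Mxd3 was close to absent from Naive cells, at 1.65 and 1.83 CPM, and higher in every treated library. The log2 fold changes were 5.07 (SE 0.36, edgeR adjusted p = 2.36e-07) in Ag and 6.03 (SE 0.37, edgeR adjusted p = 3.92e-08) in Ag+Costim. On the log2(FPKM + 1) scale they were 4.11 and 5.08, both still called. Its gene overlaps Prelid1 on the opposite strand, and use of strand in counting is not given in the sources used here. Prelid1 was higher than in Naive by 1.01 in Ag and by 1.06 in Ag+Costim on the log2 scale, and between the treated groups it differed by 0.05 (edgeR adjusted p = 0.539).

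Mxd4 crossed the Naive level in opposite directions in the treated groups. Naive libraries held 31.9 and 32.4 CPM, the Ag libraries were above them by 1.80 (SE 0.22, edgeR adjusted p = 2.35e-05) and the Ag+Costim libraries below them by 1.19 (log2 fold change -1.19, SE 0.19, edgeR adjusted p = 1.82e-04). Both calls were kept under all 21 alternatives.

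Mnt fell by 2.06 on the log2 scale from Naive to Ag (SE 0.27, edgeR adjusted p = 3.34e-05), from 12.5 and 16.2 CPM. On the log2(FPKM + 1) scale this value was -1.36 and still called. Its log2 fold change in Ag+Costim was -0.81 (SE 0.27, edgeR adjusted p = 0.0221), which was not called without Naive 2 (0.201). Mga, at 40.5 and 44.1 CPM in Naive, was lower by a log2 fold change of -0.88 in each treated group (SE 0.18 in both, edgeR adjusted p = 0.00126 and 0.00102). With a correction for transcript length, the values were -0.05 and -0.22 and neither passed (0.798 and 0.180).

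Mxi1 and Mxd1 were near their Naive levels in Ag, at log2 fold changes of -0.03 (95% interval -0.42 to 0.36) and -0.10 (-0.55 to 0.35). In Ag+Costim they were lower than in Naive, at -0.74 (SE 0.19, edgeR adjusted p = 0.00589) and -0.62 (SE 0.22, edgeR adjusted p = 0.0334). The Mxd1 call was lost in 5 of the 21 alternatives, among them without Naive 1 (0.0982), without Naive 2 (0.157) and without Ag+Costim 2 (0.0511). Mlx was not called in either comparison, with log2 fold changes of 0.21 (-0.08 to 0.49) in Ag and 0.20 (-0.08 to 0.48) in Ag+Costim; without Ag 4 the first was 0.29 and passed (0.0444). The fitted value of Mycn in Ag against Naive, 6.29 (SE 1.93, edgeR adjusted p = 0.0168), depends on the prior count because the Naive libraries held 4 and 0 counts, and it was not called without Naive 1 (10.2, adjusted p = 0.0645) or without Naive 2 (5.35, adjusted p = 0.140). In Ag+Costim against Naive, Mycn was not called (fitted value 4.05, SE 1.84, edgeR adjusted p = 0.0799).

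**Figure D2:**
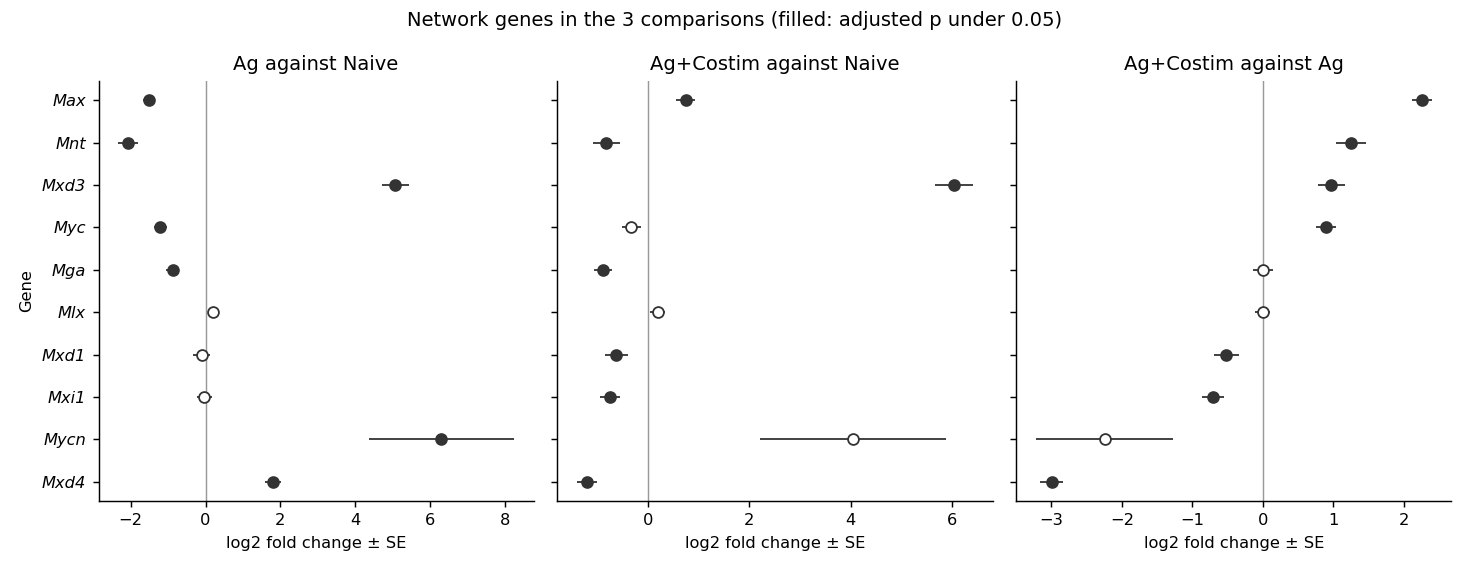
Log2 fold changes (x axis, with SE bars, scaled per panel) of the 10 genes (y axis) in the 3 comparisons; filled points have an edgeR adjusted p below 0.05 and open points do not. Max, Mnt and Myc are negative in Ag against Naive and positive in Ag+Costim against Ag, and Mxd4 is positive in the first and negative in the second, 2 comparisons that share the Ag libraries.

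Levels of different genes were compared per length, as the sum of a gene's transcript FPKM. In Naive the order was Myc (95.8 ± 8.28 FPKM, SD, n = 2), Mlx (43.7), Max (36.6), Mxd4 (9.05), Mxd1 (7.90), Mxi1 (7.18), Mga (5.36), Mnt (3.45), Mxd3 (1.40) and Mycn (0.0169), and no neighbours in it overlapped over the 2 libraries. In Ag, Mlx (46.3 ± 6.50 FPKM, SD, n = 5), Mxd3 (42.5 ± 13.6), Myc (35.8 ± 6.11) and Mxd4 (29.6 ± 2.83) followed each other with overlapping ranges. They were followed by Max (9.99 ± 1.51), whose range touched that of Mxd1 (6.69), then Mxi1 (6.14), and last Mga (2.32), Mycn (1.30) and Mnt (0.741), again with overlapping neighbours. In Ag+Costim, Mxd3 (80.7 ± 10.7 FPKM, SD, n = 5) and Myc (64.2 ± 7.79) overlapped at the top, and Max (45.3 ± 7.51) and Mlx (44.1 ± 2.20) overlapped behind them. Mxd1 (4.09), Mxi1 (3.56), Mxd4 (3.45), Mga (2.65) and Mnt (1.70) each overlapped with the next, and Mycn (0.277) was below them all. By mean, Mxd3 thus stood in the ninth place in Naive and in the first in Ag+Costim, and Mxd4 in the fourth place in Ag and in the seventh in Ag+Costim.

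The RNA of the repressor genes Mxd1, Mxd3, Mxd4, Mxi1, Mnt and Mga was summed per FPKM of Myc. This ratio was 0.372 and 0.347 in the Naive libraries, 2.96, 2.53, 1.79, 2.87 and 2.30 in Ag, and 1.52, 1.13, 1.41, 1.62 and 1.91 in Ag+Costim. The treated groups overlapped, as Ag 3 was below Ag+Costim 5, and both lay above Naive. The mean was 0.359 ± 0.0174 (SD, n = 2) in Naive, 2.49 ± 0.475 (SD, n = 5) in Ag and 1.52 ± 0.285 (SD, n = 5) in Ag+Costim. The sum itself was 34.3 ± 1.31 FPKM in Naive, 88.0 ± 15.3 FPKM in Ag and 96.1 ± 10.5 FPKM in Ag+Costim, with Mxd4 and Mxd3 as the main terms in Ag and Mxd3 in Ag+Costim. Myc per Max was 4.00, 4.18, 4.70, 2.93 and 2.55 in Ag and 1.52, 1.92, 1.37, 1.09 and 1.34 in Ag+Costim, with no overlap, and 2.59 and 2.64 in Naive, within the Ag range. RNA ratios do not give the amounts of the proteins.

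**Figure D3:**
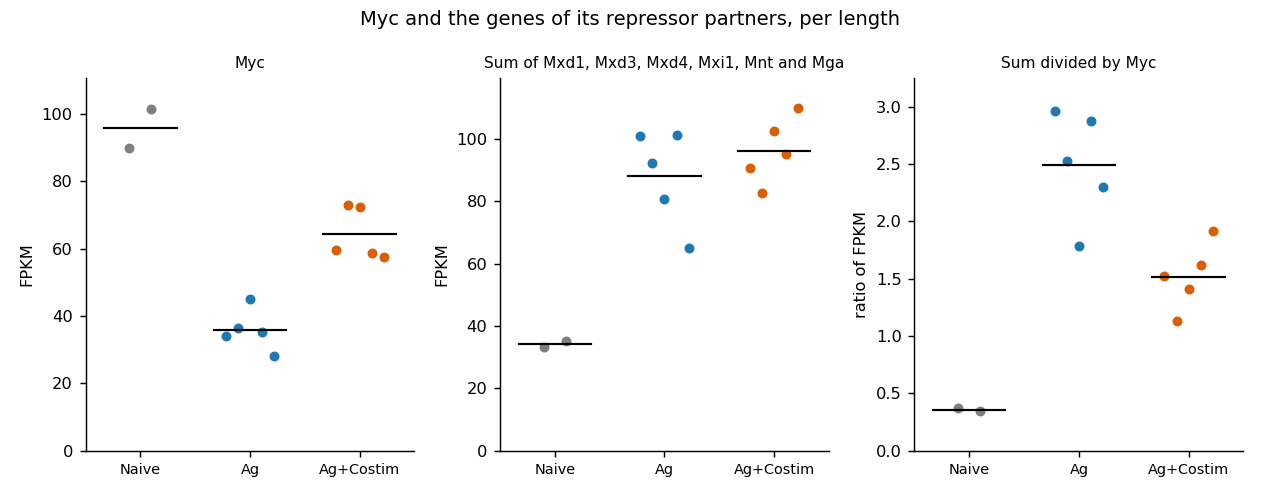
FPKM of Myc, summed FPKM of the 6 repressor genes, and their ratio (y axes from 0) in the Naive, Ag and Ag+Costim libraries (x axis); points are libraries and bars group means. The ratio averages 0.359 in Naive, 2.49 in Ag and 1.52 in Ag+Costim.

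The E-box CACGTG, which reads the same on both strands, was searched in RefSeq promoter windows of GRCm38.p6 from 250 bases before to 50 bases after each gene's start. It occurred in 8.09% of the 27025 genes with a window. Of the 9 members with a window, 4 held it, and the site is shown in capitals with 12 bases on each side because it is the sequence that these proteins bind.
Max: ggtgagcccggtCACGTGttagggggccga
Mxd4: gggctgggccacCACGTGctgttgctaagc
Mnt: ccccacccaagcCACGTGtgcgcgcgcggt
Mlx: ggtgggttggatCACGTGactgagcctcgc
The Max window lies at chr12:76962234-76962263 on the minus strand, and its E-box begins at base -3, across the start of the gene. The Mxd4 window lies at chr5:34187912-34187941 on the minus strand, with the E-box at -219. Those of Mnt (chr11:74830789-74830818, plus strand, E-box at -123) and Mlx (chr11:101087238-101087267, plus strand, E-box at -40) are upstream as well. The 4 genes with this sequence did not move together, since Max and Mnt were higher, Mxd4 lower and Mlx not called in Ag+Costim against Ag.

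The genes on which the network acts were described by lists drawn from general knowledge, but with earlier results of these data known, so that their counts are a description. Of 58 growth targets of MYC (mostly ribosome assembly, nucleolar and translation genes, with others of nucleotide metabolism, DNA replication, mitochondria and the cell cycle), 48 were higher, 2 lower and 8 not called in Ag+Costim against Ag, with a median log2 fold change of 0.85 beside -0.05 for all genes. Of all tested genes, 26.6% were called higher and 26.5% lower. Without Ag 4, 46 growth targets were higher and 2 lower. The rises were led by Tfap4, a transcription factor that extends MYC-driven division in CD8+ T cells, at 3.87 (SE 0.55), Ung, a uracil-DNA glycosylase, at 2.94 (SE 0.23), and Rrp12, a ribosome assembly factor, at 2.69 (SE 0.14). Tfap4 was low in Ag, at 0.241, 0.246, 0.210, 0.712 and 0 CPM, and at 4.72, 4.01, 2.85, 3.84 and 4.10 CPM in Ag+Costim. The 2 lower genes were Ccnd2, a D-type cyclin, at -1.45 (SE 0.11), and Exosc5, an exosome subunit, at -0.51 (SE 0.08). An E-box lay in the promoter window of 17 of the 50 growth targets with a window (34.0%), beside 8.09% of all genes. The count was 4 of 26 for the metabolic targets, 1 of 17 for the cofactors, 3 of 17 for the stability regulators, 1 of 14 for SIN3, 1 of 10 for PRC1.6 and 0 of 4 for the repressed genes described next.

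Of 30 metabolic targets, 24 were higher, 4 lower and 2 not called, beside 26.6% of all genes higher and 26.5% lower. Their median was 0.91, beside -0.05 for all genes. Without Ag 4, 25 were higher and 4 lower. Slc7a5, the large neutral amino acid transporter, stood at 10.2, 8.71, 7.67, 13.4 and 5.60 CPM in Ag and at 137, 187, 164, 67.8 and 115 CPM in Ag+Costim, a log2 fold change of 3.89 (SE 0.29). Cad, the first enzyme of pyrimidine synthesis, followed at 3.82 (SE 0.28) and Mthfd1 of the folate cycle at 2.41 (SE 0.16). Among the lower genes were Pdk1, a kinase of pyruvate dehydrogenase, at -0.58 (SE 0.11), and Slc1a5, a glutamine transporter, at -0.36 (SE 0.09).

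Against Naive cells, 24.2% of all genes were higher and 22.5% lower in Ag (median 0.02), and 26.9% and 25.4% in Ag+Costim (median -0.02). In Ag, 7 of the 58 growth targets were higher and 30 lower than in Naive (median -0.41), and 15 of the 30 metabolic targets higher and 9 lower (median 0.51). In Ag+Costim, 26 growth targets were higher and 5 lower (median 0.46), and 24 metabolic targets higher and 2 lower (median 1.57). Tfap4, Slc7a5 and Cad were among those lower in Ag than in Naive, at -4.37 (SE 0.62), -1.89 (SE 0.32) and -2.03 (SE 0.32). The 9 proliferation markers were all higher in each of the 3 comparisons, with medians of 4.63 in Ag against Naive, 6.41 in Ag+Costim against Naive and 1.79 between the treated groups. The part of cell division in the values of the target lists was not tested.

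Cofactors that MYC recruits were higher in 12 cases of 18 and lower in none in Ag+Costim against Ag, with a median of 0.44 (14 and 0 without Ag 4), beside 26.6% of all genes higher and 26.5% lower. The largest rises were those of the acetyltransferase Kat2a (1.71, SE 0.10), of Hcfc1 (1.51, SE 0.21) and of Wdr5 (1.19, SE 0.12), the last 2 chromatin proteins that bind MYC. In Ag against Naive, 2 of the 18 were higher and 11 lower, beside 24.2% of all genes higher and 22.5% lower. Regulators of MYC protein stability moved both ways in Ag+Costim against Ag, with 11 of 20 higher and 7 lower, beside 26.6% and 26.5% of all genes. Among the higher were Cip2a, an inhibitor of the phosphatase PP2A that protects MYC, at 2.25 (SE 0.18), and the ubiquitin ligase genes Fbxl14 (2.21, SE 0.16) and Trim32 (1.88, SE 0.38). Ppp2r5a, a subunit of PP2A, was at -1.51 (SE 0.16), Axin1 at -1.12 (SE 0.24), and Pim2, a kinase, at -0.99 (SE 0.18).

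Genes listed with the SIN3 corepressor, through which the MXD proteins and MNT act, went both ways, as did the tested genes as a whole. Of these 18 genes, not all of which encode its own subunits, 7 were higher and 8 lower in Ag+Costim against Ag (median -0.19). Of all genes, 26.6% were higher and 26.5% lower (53.1% in either direction, median -0.05). The scaffold Sin3a was higher by 1.62 (SE 0.14), with 16.1 to 25.0 CPM among the Ag libraries and 54.1 to 75.0 CPM among those with costimulation, and the histone-binding subunits Rbbp7 (0.93, SE 0.10) and Rbbp4 (0.92, SE 0.12) were higher too. Arid4a (-1.10, SE 0.09), Ncor1 (-1.09, SE 0.09) and Arid4b (-1.05, SE 0.11) were lower. Of the 13 genes of PRC1.6, the complex of MGA, 11 were higher and 1 lower (median 0.74; 11 and 2 without Ag 4), although Mga itself was not called. Cbx3 (1.55, SE 0.10), Tfdp1 (1.45, SE 0.12) and L3mbtl2 (1.43, SE 0.10) led the rises, and Yaf2 was the gene that fell (-1.69, SE 0.23). The genes Wdr5, Hdac1, Hdac2 and Cbx3 stand in more than 1 of these lists.

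Genes that MYC is known to repress did not share a direction. Cdkn1a, the cell cycle inhibitor p21, was higher by 2.15 (SE 0.46) and Ndrg1 by 0.91 (SE 0.25). Cdkn1b, the inhibitor p27, was at -0.72 (SE 0.18) and Gadd45a at -1.50 (SE 0.16). Cdkn2b was not called (0.59, SE 0.82). On the MLX side, the partner Mlxip was lower (-0.54, SE 0.15), and its target genes Txnip (-0.79, SE 0.22) and Arrdc4 (-1.01, SE 0.29), which restrain glucose uptake, were lower as well. Mlxipl and Mycl were at most 0.52 and 1.54 CPM in any library and were not called (log2 fold changes of 2.84, SE 1.21, and 0.17, SE 0.57). For the genes of these lists named as higher or lower, edgeR adjusted p lay between 1.43e-08 (Rrp12) and 0.00890 (Arrdc4).

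**Figure D4:**
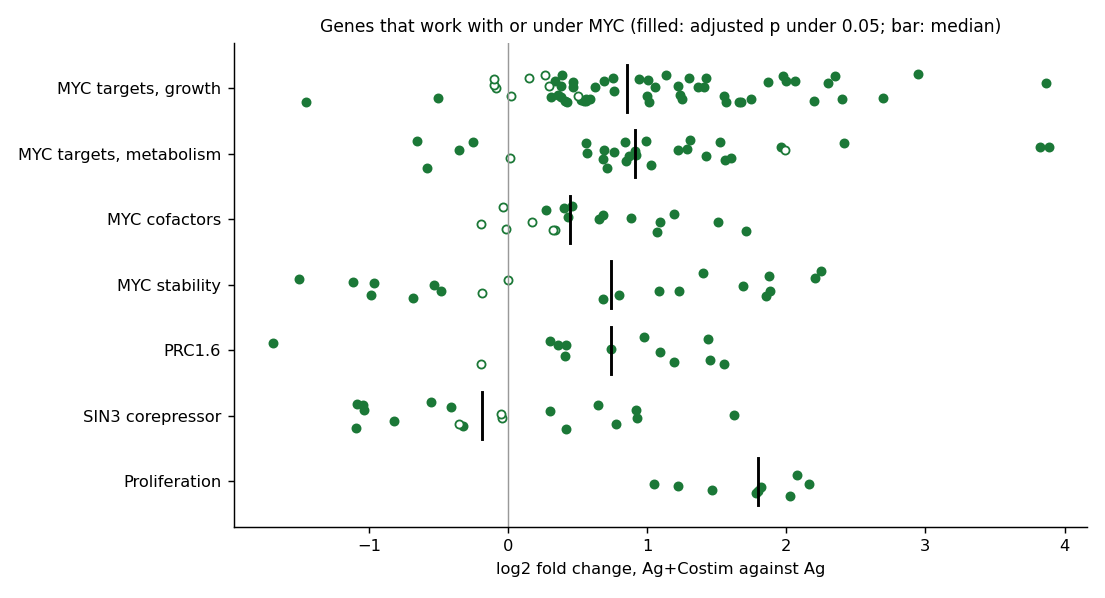
Log2 fold changes in Ag+Costim against Ag (x axis) of the genes in 7 lists (y axis); each point is 1 gene, filled at an edgeR adjusted p below 0.05, and bars mark list medians. The medians are 0.85 for growth targets, 0.91 for metabolic targets, 0.44 for cofactors, 0.74 for stability regulators and for PRC1.6, -0.19 for SIN3 and 1.79 for proliferation.

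The genes whose log2 CPM followed each member most closely over the 12 libraries were sought among 9253 genes. As the libraries form 3 groups, these correlations largely follow the group means and are given as a description. Mxd3 was closest to Birc5, a gene of dividing cells (Pearson r = 0.998), and to the histone genes Hist1h2ae and Hist1h2ap (0.998 and 0.997). Max was closest to Tmed9 (0.993), Vapb (0.990) and Srebf2, a regulator of sterol synthesis (0.989). Myc was closest to Senp5, Pank3 and Dhx33 (0.949, 0.947 and 0.946), and Mxd4 to Akr1b10, Tmem223 and Ranbp9 (0.991, 0.990 and 0.990). For Mga these were Epm2aip1, Med13l and Ubr1 (0.961 to 0.947), for Mlx Hsdl2, Vps26a and Psmf1 (0.949 to 0.931), for Mxi1 Cwf19l2, Ubp1 and Siah1a (0.913 to 0.893) and for Mxd1 Acad8, Agtrap and Lrrc28 (0.904 to 0.902).

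The transcripts of the members were compared next, as the share of a gene's counts that StringTie assigned to each. Of 64 annotated transcripts, 23 held at least 10% of the counts of their gene in some group, and 22 of these could be tested. The test of transcript usage in edgeR (diffSpliceDGE) called none of them at an adjusted or an unadjusted p below 0.05 (smallest adjusted p = 0.840), beside 2.41% of all transcripts. This lack of calls says nothing about stability, since on simulated data the test found few of the changed transcripts and called more unchanged than changed ones, which also limits what its background share can tell. An exact two-sided permutation test of the shares, 5 libraries against 5, gave its smallest possible p, 0.00794, for 4 of the 22. In these 4 the groups separated wholly, as in 5.36% (above) and 5.10% (below) of all transcripts. Only 1 other, Mlx-202, had an unadjusted p below 0.05 (0.0159). It held 47.6% ± 11.8 (SD, n = 5) in Ag and 33.3% ± 6.16 (SD, n = 5) in Ag+Costim, with overlapping libraries. After adjustment over all 20607 transcripts none in the table passed. The smallest possible p became 0.0759 (as for those 4), so no single transcript could pass, however large its change. This lack of calls says nothing about stability either.

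The 4 transcripts belong to 2 genes, so they are not independent. Mxd1-201, the protein-coding form, held 74.6%, 66.9%, 78.5%, 71.5% and 73.0% of Mxd1 counts in Ag and 91.5%, 90.2%, 88.8%, 82.0% and 84.0% in Ag+Costim. The groups did not overlap, as in 5.36% of transcripts (above). The retained-intron form Mxd1-204 made up the difference, with 27.0% ± 4.22 (SD, n = 5) in Ag and 12.7% ± 4.11 (SD, n = 5) in Ag+Costim, and 25.2% and 24.9% in Naive. In Mga, the coding form Mga-204 held 93.7% ± 2.16 (SD, n = 5) in Ag and 86.8% ± 1.67 (SD, n = 5) in Ag+Costim, again without overlap (5.10% of transcripts, below). The retained-intron form Mga-210 held 5.22%, 7.08%, 4.51%, 0% and 3.64% in Ag, 9.88%, 11.6%, 9.46%, 10.6% and 12.3% in Ag+Costim, and 10.1% and 9.42% in Naive. The value of 0% in Ag 4 came from 721 counts of the gene, which allows a share of up to 0.416% by counting error alone, without error in assigning reads to transcripts.

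Mxi1 has alternative first exons, and Mxi1-201 begins upstream of the others. It was at 0 of 788 and 0 of 738 counts in the Naive libraries, which allows shares of up to 0.381% and 0.407% by counting error alone. Error in assigning reads to transcripts is not included in these limits. It held 37.7%, 19.9%, 16.7%, 85.8% and 21.9% in Ag and 45.7%, 74.4%, 69.1%, 66.3% and 68.5% in Ag+Costim. All treated libraries thus had counts on the upstream form and neither Naive library had any, and Ag 4 stood far above the rest of its group. Between the treated groups the exact permutation p was 0.0794. Mxi1-203, which begins at the downstream exon, held 84.7% ± 6.27 (SD, n = 2) in Naive, 58.4% ± 26.6 (SD, n = 5) in Ag and 29.0% ± 12 (SD, n = 5) in Ag+Costim. Myc was spread over Myc-201, Myc-205 and Myc-206 at 25.1% to 31.1% each in Ag+Costim, and Mnt counts lay almost wholly on Mnt-201.

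**Figure D5:**
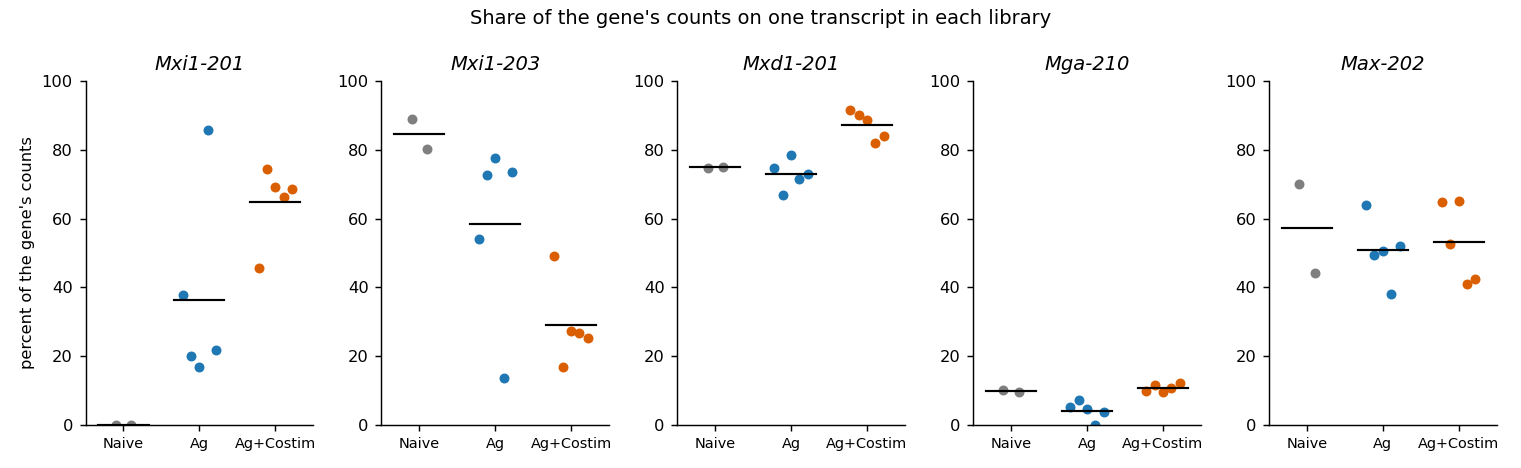
Share of the gene's counts (y axis, percent, 0 to 100) held by 5 transcripts in the Naive, Ag and Ag+Costim libraries (x axis); points are libraries and bars group means. Mxi1-201 is at 0 in both Naive libraries, Mxd1-201 and Mga-210 are higher in every Ag+Costim than in every Ag library, and Max-202 overlaps between groups.

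Splicing was also available as Psi, the fraction of reads at a gene segment that include it, which the authors calculated with Whippet as 1 value per group. It has no replicate error here, and no test is given, because the probability that accompanies each value is the authors' own comparison and was not used. Of 69 segments of the members, 9 (13.0%) differed by at least 0.1 between Ag and Ag+Costim, beside 7.39% of all 115403 segments. Segments of 1 gene share reads and are not independent. For Max, the segment was the exon at chr12:76961263-76961289 (mm10, minus strand), which has 27 bases or 9 codons and is the second exon of Max-202. Its sequence in the direction of transcription, with the whole exon in capitals, is shown because it separates the long from the short form of MAX.
Max exon: GAAGAGCAACCGAGGTTTCAATCTGCG
The Psi of this exon was 0.277 in Ag and 0.429 in Ag+Costim. In the counts per transcript, Max-202, which contains it, held 50.8% ± 9.11 (SD, n = 5) in Ag and 53.1% ± 11.6 (SD, n = 5) in Ag+Costim, with overlapping libraries (exact permutation p = 0.722), so the Psi difference was not matched by a difference of that size in the StringTie counts.

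In Mga, an exon of 624 bases at chr2:119941222-119941845 (mm10, plus strand) was included at 0.860 in Ag and 0.721 in Ag+Costim. For Mxi1, the first exon of Mxi1-203 at chr19:53329413-53329720 (mm10, plus strand) had a Psi of 0.806 in Ag and 0.705 in Ag+Costim, while the shares of Mxi1-203 overlapped between these groups (exact permutation p = 0.0714), with Ag 4, at 13.7%, below every Ag+Costim library. In Mxd4, the start segment at chr5:34187711-34187720 (mm10, minus strand) had a Psi of 0.366 in Ag and 0.650 in Ag+Costim, and the adjoining start segment at chr5:34187510-34187710 had 0.635 and 0.352. The transcript annotated from the outer start, Mxd4-202, held 2.32% of Mxd4 counts in Ag and 0.691% in Ag+Costim, so the 2 kinds of estimate differ for this gene. Mxd4 (0.720 and 0.281 in Ag, 0.612 and 0.388 in Ag+Costim) and Myc (0.345 and 0.512 in Ag, 0.459 and 0.409 in Ag+Costim) each also had 2 segments at their 3' ends past the limit.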

How the data were processed

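Reads of 12 libraries, single-end with 100 bases, were aligned by the authors to mm10 with HISAT2 2.1.0 and quantified with StringTie 2.1.0 (SAMtools 1.9), from SMART-Seq v4 and Nextera XT libraries. Gene and transcript counts are raw values deposited by the authors as StringTie wrote them. FPKM, which the authors obtained per transcript from the same tool, is scaled for length and library size and was summed here by gene name. Psi is a fraction between 0 and 1 from Whippet, deposited by the authors as 1 value per group, and the columns for its difference and probability were not used. Percent aligned, percent complexity and input amounts come from a deposited sheet of the core facility.

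Counts were fitted with edgeR 4.0.16 in R 4.3.3 (TMM scaling, filterByExpr, robust quasi-likelihood test, 1 term per group over all libraries, two-sided, Benjamini-Hochberg adjustment over 18817 genes). Entries with no Ensembl identifier (0.0508% to 0.121% of counts) were left out. CPM of members and listed genes use TMM library sizes, and marker CPM total counts. SE is the log2 fold change divided by the square root of F. Transcript usage was tested with diffSpliceDGE and, as an alternative, by an exact permutation test of shares over 252 arrangements. Intervals and floors (3 counts) cover counting error only, or the fitted error at 95%. The edgeR gene test, diffSpliceDGE and the permutation test were run on simulated data for Ag+Costim against Ag. There the edgeR gene test found most of the changes put in, and diffSpliceDGE found few and made more false than true calls. The permutation test found most at an unadjusted p below 0.05, with false calls near that rate. Alternatives were upper-quartile and RLE scaling, DESeq2 1.42.0, no filter, a mean CPM above 1, the 2 groups alone, a replicate block, a length correction (lowess), limma 3.58.1 on log2(FPKM + 1) and the omission of each library. Members of a mean log2 CPM above 3 were matched to similar genes. Genes named from lists were the 3 largest called rises and falls in Ag+Costim against Ag, or all genes of short lists, except that some listed genes are not reported here. The members and lists were chosen with earlier results of these data known.

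Max, Mxd1, Mxd3, Mxd4, Mxi1 and Mlx overlap other annotated genes, so reads in the overlaps may have been divided between genes. Promoters were taken from RefSeq (GRCm38.p6) and the Max exon from GENCODE vM21 transcripts.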

Additional observations from a re-analysis of the deposited data

Results flagged for a closer look

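In groups of 5 libraries, a highest or lowest value far from the others by Dixon's criterion was found in 7 of 104 groups examined, where chance gives about 1 in 20. Ag 4 was high for the Mga-204 share (97.4%), Ag 2 low for the Mnt-201 share (99.2%), and Ag 5 low for the Mxd3-201 share (78.1%) and high for the Mxd3-203 share (18.8%). Ag+Costim 1 was low for the Mxi1-201 share (45.7%) and for the Myc-205 share (19.5%). Ag+Costim 4 was low for the summed proliferation markers (3829 CPM). None of the gene levels of the 10 members was among the 7.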

How the results depend on the processing

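Of 630 recomputed log2 fold changes of the members, 588 kept their direction and their side of the threshold, 14 were no longer called, 10 became called and 18 changed sign; the cause was not tested. Every sign change was of a value that was not called: Mga in Ag+Costim against Ag (0.0034 with no filter, 0.13 on the FPKM scale, -0.11 to 0.081 with 1 library left out), Mlx in the same comparison (0.0082 with the replicate block, 0.16 with the length correction, -0.089 to 0.069 with 1 library left out), Mxi1 in Ag against Naive (0.017 with upper-quartile scaling, 0.094 with the length correction, -0.081 to 0.031 with 1 library left out) and Mxd1 in Ag against Naive (0.37 with the length correction). With 1 library left out, genes called in Ag against Naive were 2906 to 4944 higher and 2807 to 4625 lower (main values 4559 and 4233), lowest without Naive 2. Members called in Ag+Costim against Naive were then 1 to 3 higher and 3 to 5 lower (2 and 5), lowest without Naive 1 and without Naive 2, and 1 was higher on the FPKM scale. All transcripts called in transcript usage were 441 at a mean CPM above 1 and 0 by the exact permutation test, in place of 1007. The permutation test could call none, because its smallest possible p did not pass after adjustment.

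Replicate numbers are shared by the groups. The deviations of same-numbered libraries correlated weakly (r = 0.0159 to 0.0951, 0 of 5 pairs over 0.1, 3 of 5 best with their own number). Whether the numbers mark a pairing of libraries was not tested. With the replicate block, 4993 genes were higher and 4743 lower in Ag+Costim against Ag (5006 and 4979 without), and 4 members higher and 3 lower as before. Mycn was called in Ag+Costim against Naive (main value 4.05, not called) with the block (5.09), with DESeq2 (4.14), with the 2 groups alone (4.06) and without Ag 4 (4.05). Over all alternatives this value ran from 0.30 (FPKM scale) to 7.95 (without Naive 1), and was 3.10 without Naive 2 and 3.44 without Ag+Costim 1. The spread between libraries limits Mycn, counts of Mlxipl and Mycl are low, and the 2 Naive libraries limit every comparison with them.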
